A study of Mus musculus with 9 samples.

Results

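The genes described here are 10 listed transcription factors of the myeloid lineages, Spi1, Cebpa, Cebpb, Cebpd, Cebpe, Gata1, Gata2, Gfi1, Gfi1b and Klf4, out of 35288 genes in the count table. They were chosen by name, with earlier results of these data known, and were found through their mouse Ensembl identifiers. All 10 were listed, and 6 of them had enough counts to be tested. T15 is a murine cell line of Smarcb1-negative peripheral T-cell lymphoma (PTCL), and all 9 libraries come from it. RNA-seq was done on 3 Control libraries, 3 libraries of cells given SAHA and 3 libraries of cells re-expressing Smarcb1 (Smarcb1-RE). SAHA (vorinostat), an inhibitor of histone deacetylases, was used at 1 µM over 72 h. In its viability experiments the study reports strong apoptosis of T15 cells at this dose, with the large majority of cells dead. How many cells of the SAHA libraries were dying is not stated. The part of cell death in the SAHA values was not tested. The Smarcb1-RE cells carried a lentiviral pInd20 plasmid with Smarcb1, were selected with G418 and were induced with doxycycline (Dox, 0.5 µg/µl) for 72 h. Both a vehicle (for SAHA) and a plasmid without Smarcb1 (for re-expression) are named in the labels as controls, without saying which of them the Control libraries received, whereas the study's text calls the Control cells untreated. Transduction, selection and Dox therefore cannot be told apart from Smarcb1 in Smarcb1-RE against Control. Nor is it stated which stable clones the Smarcb1-RE libraries come from. The study calls the 3 libraries of a group biological replicates, and nothing more is said of separate cultures.

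As background, myeloid fate is set by a small circuit of such factors. PU.1, encoded by Spi1, and the C/EBP proteins switch on growth factor receptors and granule or phagocyte genes. GATA1 and GATA2 direct erythroid, megakaryocyte, mast cell and progenitor programs, and GATA1 and PU.1 restrain each other. GFI1 and GFI1B are zinc finger repressors that recruit LSD1 and histone deacetylases, with GFI1 active in granulocytes and T cells. KLF4 promotes monocyte differentiation and holds T cells in quiescence. Several of these genes are therefore not restricted to myeloid cells.

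In these cells the genes fell into those that were read and those that were not. Gfi1, Cebpb and Klf4 were at moderate levels, Cebpd and Cebpa were low, Gata2 was near the detection limit, and Spi1, Gata1, Gfi1b and Cebpe had at most 7 counts in any library. Klf4 and Gata2 rose in SAHA and Cebpb fell. Cebpb, Cebpd, Gfi1 and Klf4 rose in Smarcb1-RE and Cebpa fell. Library totals were between 20900424 and 24941408 estimated counts. A floor of 3 counts, used here as the smallest detectable level, was worth 0.123 to 0.133 CPM (counts scaled to a common depth with edgeR's TMM factors). Control replicate 1 stood apart from its replicates, with a chi-square per gene of 13.4 and 15.0 against them, where the other replicate pairs had between 2.12 and 4.69. Smarcb1 itself was at 0.208 ± 0.122 CPM (SD, n = 3) in Control, 0.335 ± 0.224 CPM (SD, n = 3) in SAHA and 6.35 ± 0.206 CPM (SD, n = 3) in Smarcb1-RE. The T cell label held for CD3 and CD8: 11 of 15 T cell markers were tested, and the list summed to between 3440 and 4030 CPM across libraries. Cd4, Cd5, Cd2 and Thy1 had at most 6 counts in any library.

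**Figure D1:**
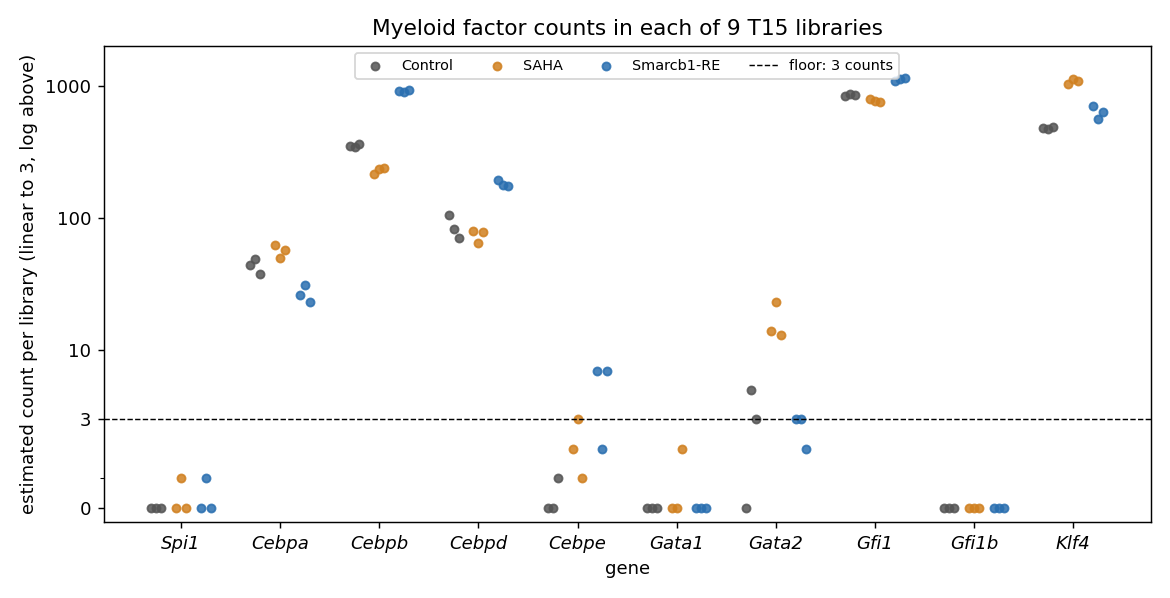
Estimated counts (y axis, linear up to 3 and logarithmic above) of the 10 genes (x axis) in each of the 9 libraries, with 1 point per library and the floor of 3 counts as a dashed line. Spi1, Gata1 and Gfi1b lie at or under the floor in all libraries, and Gfi1 lies between 754 and 1151 counts.

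Promoter sequence is shown for 4 genes that differed in level, Cebpb, Klf4, Gata2 and Gata1, a choice made after their values were seen, so that windows of genes that were read stand beside that of a gene that was not. The sequences are RefSeq windows on GRCm38.p6, the 250 bases before the start site, 5′ to 3′ on the gene's own strand, and capitals mark CG dinucleotides. RefSeq windows were found for 7 of the 10 genes, all but Spi1, Cebpd and Cebpe.
Cebpb (chr2:167688665-167688914, plus strand): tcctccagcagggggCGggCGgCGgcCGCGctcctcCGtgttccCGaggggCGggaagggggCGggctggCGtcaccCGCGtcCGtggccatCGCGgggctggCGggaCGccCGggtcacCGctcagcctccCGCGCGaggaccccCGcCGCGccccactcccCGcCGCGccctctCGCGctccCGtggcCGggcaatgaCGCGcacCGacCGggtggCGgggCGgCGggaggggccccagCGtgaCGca
Klf4 (chr4:55532476-55532725, minus strand): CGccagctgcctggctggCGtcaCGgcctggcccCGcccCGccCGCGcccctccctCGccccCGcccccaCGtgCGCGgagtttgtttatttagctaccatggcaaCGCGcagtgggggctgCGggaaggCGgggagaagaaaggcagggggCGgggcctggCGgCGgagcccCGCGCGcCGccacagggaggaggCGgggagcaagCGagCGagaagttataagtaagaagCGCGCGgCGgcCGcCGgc
Gata2 (chr6:88193641-88193890, plus strand): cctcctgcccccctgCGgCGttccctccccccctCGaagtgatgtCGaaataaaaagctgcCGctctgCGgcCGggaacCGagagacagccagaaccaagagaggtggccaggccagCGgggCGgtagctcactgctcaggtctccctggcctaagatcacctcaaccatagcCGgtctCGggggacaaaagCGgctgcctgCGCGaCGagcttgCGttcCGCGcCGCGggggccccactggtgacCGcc
Gata1 (chrX:7967911-7968160, minus strand): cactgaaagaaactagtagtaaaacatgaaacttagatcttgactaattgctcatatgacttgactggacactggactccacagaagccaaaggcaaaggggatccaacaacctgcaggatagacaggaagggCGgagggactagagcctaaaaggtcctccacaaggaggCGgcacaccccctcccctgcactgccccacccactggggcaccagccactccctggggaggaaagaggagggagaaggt
The Cebpb window held 41 CG dinucleotides, more than 98.9% of 32851 mouse windows of this length. Klf4 held 32 (above 95.4% of windows) and Gata2 held 22 (above 85.2%), whereas Gata1 held 2 (above 18.8%). The median window had 6, with quartiles of 2 and 16. None of these 4 windows overlaps an annotated exon, and the Gata1 window lies inside the annotated gene. Cebpa, not printed, held 22, the Gfi1 windows 9 and 13, and Gfi1b 5. A second Gata2 window (chr6:88198414-88198663), not printed, held 24, and all of its 250 bases lie in annotated Gata2 exon. Each window was searched on both strands for the GC box (GGGCGG, in 32.7% of all windows), the CRE core (TGACG, 17.8%), a GATA site (GATAAG, 6.55%), a PU.1 core (GAGGAA, 23.3%) and a C/EBP core (TTGCG, 14.5%). Matches of different motifs may share bases, and each is a description of the letters only. The Cebpb window had 5 GC boxes and 3 CRE cores, and the Klf4 window had 4 GC boxes and 1 CRE core. The printed Gata2 window had 1 GC box and 1 C/EBP core (the second had 2 and 1), and Gata1 had 1 GC box and 1 PU.1 core. The Gfi1b window had 1 GATA site, 1 GC box and 1 CRE core.

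Levels of different genes were compared per length, as reads per kilobase of annotated exon (RPKM, CPM divided by exon length). In Control, Gfi1 was the most abundant at 11.2 ± 0.291 RPKM (SD, n = 3), followed by Cebpb at 9.80 ± 0.12 RPKM and Klf4 at 6.55 ± 0.0723 RPKM (SD, n = 3 each). The median tested gene was at 5.91 RPKM in Control, so these 3 lay above it. Cebpd was at 0.965 ± 0.22 RPKM and Cebpa at 0.696 ± 0.0971 RPKM (SD, n = 3 each), neighbours whose ranges of 1 SD overlapped. In SAHA the order was Klf4 (15.5 ± 0.759 RPKM), Gfi1 (10.6 ± 0.326 RPKM) and Cebpb (6.64 ± 0.372 RPKM), with Cebpa (0.934 ± 0.0985 RPKM) and Cebpd (0.866 ± 0.0868 RPKM) again with overlapping ranges of 1 SD (SD, n = 3). In Smarcb1-RE, Cebpb led at 26.3 ± 0.316 RPKM, above 86.6% of tested genes, then Gfi1 at 15.2 ± 0.65 RPKM and Klf4 at 8.99 ± 0.803 RPKM (SD, n = 3). Cebpd, at 2.11 ± 0.0992 RPKM, was there well above Cebpa, at 0.439 ± 0.0739 RPKM (SD, n = 3). Thus a different gene of the 10 had the highest level per length in each group. Gata2 did not exceed 0.135 ± 0.0465 RPKM (SD, n = 3), its mean in SAHA, where 5.12% of tested genes were lower. In Control and in SAHA, the ranges of 1 SD of Gata2 and Cebpe overlapped.

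The first question was whether SAHA changed these factors. Of the 6 tested, 2 rose (Gata2 and Klf4), beside 32.6% of all 13697 tested genes called higher, and 1 fell (Cebpb), beside 34.3% called lower. Cebpa, Cebpd and Gfi1 were not called. Gata2 passed the filter on low counts only through the SAHA libraries, where it is high, and without it 1 of 5 rose and 1 fell. These counts are near the background. In Smarcb1-RE against Control, 4 of the 6 rose (Cebpb, Cebpd, Gfi1 and Klf4), beside 39.2% of all genes called higher, and 1 fell (Cebpa), beside 38.6% called lower. Between the treatments, Cebpb, Cebpd and Gfi1 were higher in Smarcb1-RE (3 of 6, beside 37.8% of all genes) and Cebpa, Gata2 and Klf4 were lower (3 of 6, beside 36.8%). The difference of Gata2 was again built into its passing the filter, and without it 3 of 5 were higher and 2 were lower. Both comparisons with Control use the same 3 Control libraries. All adjusted p-values are from edgeR's quasi-likelihood test with Benjamini-Hochberg adjustment over all tested genes. When only library totals were used for scaling, the median of all genes moved to 0.17 in Smarcb1-RE against Control and 0.18 in Smarcb1-RE against SAHA (log2), from 0.01 and 0.02, and the calls in Smarcb1-RE against Control became 6474 higher and 4143 lower in place of 5371 and 5282. No member changed direction under that scaling. In bulk RNA, fewer cells that carry a transcript and less transcript per cell cannot be told apart.

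**Figure D2:**
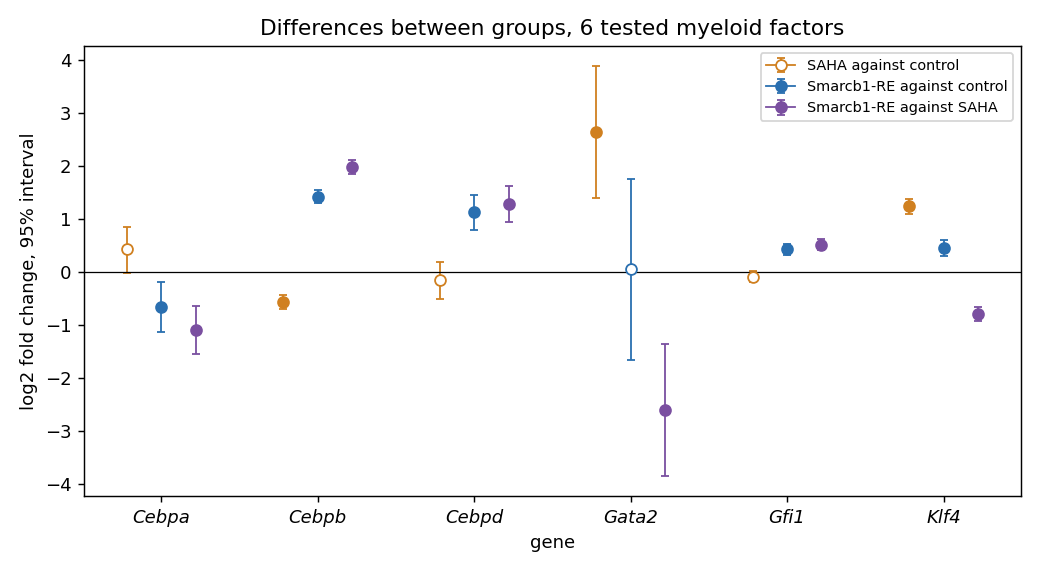
Log2 fold change (y axis, with its 95% interval from the edgeR fit, 3 libraries per group) of the 6 tested genes (x axis) in the 3 comparisons. Filled points passed an adjusted p of 0.05. Cebpb lies below 0 in SAHA against Control at -0.56 and above 0 in Smarcb1-RE against Control at 1.42.

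Spi1 (ENSMUSG00000002111, chr2:91082390-91115756, plus strand, GRCm38), which encodes PU.1, had 0 counts in all 3 Control libraries, 1 count in 1 SAHA library and 1 count in 1 Smarcb1-RE library. All libraries were thus under the floor, and no fold is given. The nearest tested genes on either side, Slc39a13 (a zinc transporter, 12.0 kb away) at 13.3 ± 0.788 CPM in Control and Madd (21.6 kb away) at 61.5 ± 3.57 CPM in Control (SD, n = 3), were read throughout. Spi1 was therefore not detectable at this depth, in a stretch of chromosome 2 where its neighbours were.

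Cebpb (ENSMUSG00000056501, chr2:167688915-167690418, plus strand, a gene without introns), which encodes the C/EBP factor of macrophage activation and emergency granulopoiesis, moved in opposite directions under the treatments. The counts were 348, 344 and 362 in Control, 216, 235 and 238 with SAHA and 914, 899 and 924 in Smarcb1-RE. No libraries of different groups overlapped. Mean levels were 14.7 ± 0.18 CPM in Control, 9.99 ± 0.559 CPM in SAHA and 39.5 ± 0.476 CPM in Smarcb1-RE (SD, n = 3 each). Cebpb fell in SAHA against Control (log2 fold change -0.56, SE 0.06, adjusted p = 4.47e-06) and rose 2.68-fold in Smarcb1-RE against Control (log2 fold change 1.42, SE 0.05, adjusted p = 1.6e-10, edgeR). Smarcb1-RE was 3.95-fold above SAHA (log2 fold change 1.98, SE 0.06, adjusted p = 1.7e-11, edgeR). Tmem189 runs across Cebpb on the opposite strand and moved the other way, with a log2 fold change of -0.61 (SE 0.06, adjusted p = 6.16e-07, edgeR) in Smarcb1-RE against Control. The kit was directional, but whether counting used strand is not given in the sources used here, so reads of the pair may have been divided. Of the flanking genes, Ptpn1 (242 kb away), a tyrosine phosphatase, rose in both treatments (0.79, adjusted p = 1.54e-08, and 0.70, adjusted p = 1.46e-08, edgeR). Gm20431 (27.4 kb away) was called in neither (0.05, SE 1.64, adjusted p = 0.983, and -0.58, SE 1.72, adjusted p = 0.767, edgeR). Its libraries were very uneven (1.96 ± 3.39 CPM in Control, SD, n = 3), so a change of either sign is not excluded. The genes with the profile nearest to Cebpb over the 9 libraries, by the distance between centred log2 CPM values, were Trim12a (distance 0.212, Pearson r 0.997 over 9 libraries) and Galt (distance 0.245, r 0.995). Such likeness describes the group pattern of 9 libraries that fall into 3 groups, and carries no test.

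Cebpd (ENSMUSG00000071637, chr16:15887286-15891031, plus strand), an acute-phase C/EBP factor induced by interleukin signals, rose in Smarcb1-RE and was not called in SAHA. Its counts were 106, 82 and 70 in Control, 80, 65 and 79 with SAHA and 195, 177 and 176 in Smarcb1-RE. The Smarcb1-RE libraries lay above all others, while Control and SAHA overlapped. The levels were 3.62 ± 0.824, 3.24 ± 0.325 and 7.91 ± 0.372 CPM (SD, n = 3 each). Against Control, Smarcb1-RE was higher by 1.13 (log2, SE 0.15, adjusted p = 1.72e-05, edgeR), and against SAHA by 1.28 (SE 0.15, adjusted p = 6.71e-06, edgeR). SAHA against Control gave -0.15 (SE 0.16, 95% interval -0.51 to 0.20, adjusted p = 0.425, edgeR), a difference that did not pass. Spidr, on the opposite strand across Cebpd, had a log2 fold change of 0.46 (SE 0.05, adjusted p = 9.24e-07, edgeR) in Smarcb1-RE against Control. In SAHA against Control it gave -0.50 (SE 0.05, adjusted p = 1.35e-06, edgeR). Spidr summed to 2950 counts in Control, 2005 in SAHA and 3941 in Smarcb1-RE, far more than Cebpd. As for Cebpb, reads of the pair may have been divided, and a part of Spidr reads in the Cebpd values was not tested. Of the flanking genes, Mzt2 (23.9 kb away) gave -0.16 in SAHA (adjusted p = 0.156) and 0.27 in Smarcb1-RE (adjusted p = 0.0195, edgeR), and Pkp2 (322 kb away), a desmosome protein, rose in both (1.14, adjusted p = 1.73e-07, and 0.99, adjusted p = 3.08e-07, edgeR). The nearest profiles were those of Zfp420 (distance 0.336, r 0.982 over 9 libraries) and Ints6l (distance 0.376, r 0.979).

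Cebpa (ENSMUSG00000034957, chr7:35119293-35121928, plus strand), the C/EBP factor needed for granulocyte-monocyte progenitors, was low. There were 44, 49 and 38 counts in Control, 63, 50 and 57 with SAHA and 26, 31 and 23 in Smarcb1-RE. In CPM, every Smarcb1-RE library was below every other library, and the SAHA libraries lay above those of Control. Mean CPM was 1.83 ± 0.256 in Control, 2.46 ± 0.26 in SAHA and 1.16 ± 0.195 in Smarcb1-RE (SD, n = 3 each). Cebpa fell in Smarcb1-RE against Control (log2 fold change -0.66, SE 0.22, adjusted p = 0.0135, edgeR), a call lost without Smarcb1-RE replicate 3 (log2 fold change -0.56, adjusted p = 0.0515, edgeR). Its value in SAHA against Control was 0.43 (SE 0.20, 95% interval -0.01 to 0.86, adjusted p = 0.0795, edgeR), which did not pass, except when only genes with at least 10 counts in every library were tested (adjusted p = 0.0283, edgeR). Smarcb1-RE was lower than SAHA (log2 fold change -1.09, SE 0.21, adjusted p = 0.000463, edgeR). On one side of Cebpa lies Cebpg (62.7 kb away), a C/EBP protein without an activation domain, with log2 fold changes of -0.27 (SE 0.06, adjusted p = 0.000751) in SAHA and 0.71 (SE 0.05, adjusted p = 7.57e-08, edgeR) in Smarcb1-RE against Control. On the other lies Slc7a10 (64.5 kb away), an amino acid transporter, which was at 0.266 ± 0.0876 CPM in Control, 0.581 ± 0.0746 CPM in SAHA (SD, n = 3 each) and 0 in all Smarcb1-RE libraries. The nearest profiles to Cebpa were Cnot10 (distance 0.389, r 0.962 over 9 libraries) and the predicted gene Gm10193 (distance 0.412, r 0.955).

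Cebpe (ENSMUSG00000052435, chr14:54710360-54712174, minus strand), the C/EBP factor of late granulocytes, was near the limit of detection. Its counts were 0, 0 and 1 in Control, 2, 3 and 1 with SAHA and 7, 2 and 7 in Smarcb1-RE. The Smarcb1-RE sum of 16 against 1 in Control gave a depth-scaled ratio of 16.5 with an exact 95% counting interval of 2.57 to 693. The libraries of these 2 groups did not overlap (p = 0.1 in an exact two-sided permutation test, which cannot go lower with 3 against 3). Cebpe did not pass the filter on low counts, and in a fit without that filter its adjusted p was 0.00698 in Smarcb1-RE against Control and 0.166 in SAHA against Control (edgeR). Control and SAHA libraries were all at or under the floor, so no fold is given for SAHA. In Smarcb1-RE against SAHA the ratio was 2.66 (exact 95% counting interval 0.987 to 8.29). The flanking Slc7a8 (10.0 kb away), an amino acid transporter, was at 0.223 ± 0.128 CPM in Control, 0.827 ± 0.229 CPM in SAHA and 0.404 ± 0.0623 CPM in Smarcb1-RE (SD, n = 3 each), and 1700123O20Rik (19.6 kb away) gave -0.05 in SAHA (adjusted p = 0.624) and -0.44 in Smarcb1-RE (adjusted p = 0.000498, edgeR).

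Among the C/EBP relatives and partners, 5 of 6 genes were tested. SAHA against Control had 1 higher and 4 lower (beside 32.6% and 34.3% of all tested genes), with a median log2 fold change of -0.47 where the median of all genes was 0.00. Smarcb1-RE against Control had 3 higher, 1 lower and 1 not called (beside 39.2% and 38.6% of all tested genes), with a median of 0.71 against 0.01. Ddit3 (CHOP), the stress-induced partner that blocks C/EBP binding, fell in SAHA (log2 fold change -1.04, adjusted p = 1.08e-06, edgeR) and rose in Smarcb1-RE (2.05, adjusted p = 1.46e-10, edgeR). The Ddit3 counts were 230, 202 and 214 in Control, 107, 107 and 88 with SAHA and 857, 880 and 852 in Smarcb1-RE, so no groups overlapped. Cebpg and Ddit3 thus had the same signs as Cebpb in both comparisons, and a relation to Cebpb was not tested. Trib1, which directs C/EBPα protein to degradation, rose in both (0.89, adjusted p = 0.00394, and 1.14, adjusted p = 0.000422, edgeR). Cebpz, a nucleolar protein despite its name, fell in both (-0.67, adjusted p = 5.66e-08, and -0.87, adjusted p = 2.21e-09, edgeR).

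Gata2 (ENSMUSG00000015053, chr6:88193891-88207032, plus strand), a factor of progenitors and mast cells, had few counts. There were 0, 5 and 3 in Control, 14, 23 and 13 with SAHA and 3, 3 and 2 in Smarcb1-RE. The SAHA libraries lay above all 6 others, which overlapped each other. The mean level was 0.112 ± 0.106 CPM in Control, 0.727 ± 0.251 CPM in SAHA and 0.116 ± 0.0256 CPM in Smarcb1-RE (SD, n = 3 each). The log2 fold change in SAHA against Control was 2.64 (SE 0.57, 95% interval 1.40 to 3.88, adjusted p = 0.00122, edgeR), and it ranged from 2.09 to 3.43 when each library was left out in turn. The SAHA libraries alone carried it past the filter, so a difference was built into its being tested. Smarcb1-RE against Control gave 0.05 (SE 0.79, 95% interval -1.66 to 1.75, adjusted p = 0.961, edgeR), an interval too wide to exclude a change of either sign. Smarcb1-RE was lower than SAHA (log2 fold change -2.60, SE 0.57, adjusted p = 0.00116, edgeR). Its neighbours Rpn1 (88.6 kb away) and Eefsec (50.3 kb away) were lower in SAHA by -0.10 (adjusted p = 0.0224) and -0.50 (adjusted p = 2.07e-06, edgeR), so neither rose with it. The nearest profiles were Kif7 (distance 1.10, r 0.949 over 9 libraries) and Wipi1 (distance 1.26, r 0.925), less close than for the more abundant genes.

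Gata1 (ENSMUSG00000031162, chrX:7959260-7978071, minus strand), the erythroid and megakaryocyte factor, had 0 counts in 8 of 9 libraries and 2 in SAHA replicate 3. It was under the floor throughout, and no fold is given. Hdac6 (11.4 kb away), a cytoplasmic deacetylase, was at 21.1 ± 0.869 CPM in Control and Suv39h1 (83.1 kb away), a histone methyltransferase, at 118 ± 1.4 CPM (SD, n = 3), so the flanking genes were read. Of the GATA partners and relatives, 4 of 8 were tested. In SAHA against Control 1 was higher, none was lower and 3 were not called, beside 32.6% and 34.3% of all tested genes, with a median log2 fold change of 0.18. In Smarcb1-RE against Control 3 were higher and 1 was not called, beside 39.2% and 38.6% of all tested genes, with a median of 1.33. Gata3, the GATA factor of T cells, had 74, 63 and 64 counts in Control, 71, 82 and 65 with SAHA and 391, 394 and 375 in Smarcb1-RE. It rose in Smarcb1-RE by 2.57 (log2, adjusted p = 4.66e-10, edgeR) and gave 0.17 in SAHA (adjusted p = 0.282, edgeR). Gata4, a factor of heart and endoderm, rose in both (1.03, adjusted p = 2.18e-05, and 1.80, adjusted p = 5.02e-08, edgeR). Ldb1, the bridging protein of GATA1 complexes, was at 110 CPM in Control and was called in neither (-0.10, adjusted p = 0.0981, and -0.12, adjusted p = 0.0501, edgeR).

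Marker genes of the lineages that GATA factors direct were mostly under the floor. Of the mast cell, basophil and eosinophil markers, 3 of 15 were tested and 11 of 15 had at most 3 counts in every library, among them Kit, Cpa3 and Fcer1a. Ms4a2, the beta chain of the IgE receptor, had 14, 15 and 12 counts in Control, 37, 29 and 32 with SAHA and 9, 12 and 9 in Smarcb1-RE, and rose in SAHA (log2 fold change 1.30, adjusted p = 0.000564, edgeR). Its SAHA libraries were the highest 3 of the 9, as for Gata2. Il1rl1, the interleukin-33 receptor, had 107, 116 and 118 counts in Control and 184, 165 and 185 in SAHA, where it rose (0.70, adjusted p = 0.00107, edgeR), and 2, 2 and 0 in Smarcb1-RE, where it fell (-6.24, adjusted p = 1.44e-09, edgeR). Il5ra, the eosinophil interleukin-5 receptor, gave 1.44 in Smarcb1-RE (adjusted p = 0.00178, edgeR), the group through which alone it passed the filter. The list summed to between 5.70 and 5.92 CPM in Control, 8.88 and 10.1 CPM in SAHA and 1.55 and 1.92 CPM in Smarcb1-RE. Il1rl1 alone, at 4.77, 7.74 and 0.0579 mean CPM in these groups, made up most of the sums in Control and SAHA.

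Of the erythroid and megakaryocyte markers, 16 of 17 were found, 3 were tested, and 10 had at most 3 counts in every library. SAHA against Control had 2 higher, where 32.6% of all tested genes were, and Smarcb1-RE against Control had 3 higher, where 39.2% were. Epor, the erythropoietin receptor and a known GATA1 target, had 4, 8 and 9 counts in Control, 60, 85 and 63 with SAHA and 28, 30 and 42 in Smarcb1-RE. No groups overlapped for Epor, which rose in SAHA by 3.34 (log2, adjusted p = 1.12e-06, edgeR) and in Smarcb1-RE by 2.28 (adjusted p = 3.68e-05, edgeR). Gata1 was not detected, and a relation between Gata1 and Epor was not tested. Vwf, von Willebrand factor, gave 2.63 in Smarcb1-RE (adjusted p = 3.67e-05, edgeR), but passed the filter only through that group, and Itga2b, the platelet integrin, rose in SAHA by 0.42 (adjusted p = 0.0437, edgeR) and in Smarcb1-RE by 0.91 (adjusted p = 0.000255, edgeR). The globin genes Hbb-bs and Hbb-bt had at most 1 count in any library, and the near-identical Hba-a1 and Hba-a2 had at most 16, a pair between which reads may have been divided.

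Gfi1 (ENSMUSG00000029275, chr5:107716657-107726036, minus strand) was read in every library. The counts were 833, 870 and 851 in Control, 794, 772 and 754 with SAHA and 1077, 1117 and 1151 in Smarcb1-RE. The 3 Smarcb1-RE libraries were the highest, at 48.3 ± 2.07 CPM against 35.7 ± 0.927 CPM in Control and 33.6 ± 1.04 CPM in SAHA (SD, n = 3 each). Gfi1 rose in Smarcb1-RE against Control by 0.44 (log2, SE 0.05, adjusted p = 2.71e-06, edgeR) and was higher than in SAHA by 0.52 (SE 0.05, adjusted p = 5.81e-07, edgeR). SAHA against Control gave -0.09 (SE 0.05, 95% interval -0.19 to 0.02, adjusted p = 0.141, edgeR) and did not pass. The flanking genes Rpap2 (54.8 kb away) and Evi5 (18.8 kb away) had log2 fold changes of -0.18 (adjusted p = 0.016) and -0.33 (adjusted p = 0.000344, edgeR) in Smarcb1-RE against Control, opposite in sign to Gfi1. The nearest profiles were Poli (distance 0.106, r 0.990 over 9 libraries) and Arih2 (distance 0.108, r 0.988). Gfi1b (ENSMUSG00000026815, chr2:28609450-28621982, minus strand), its paralog of erythroid and megakaryocyte cells, had 0 counts in all 9 libraries, while Gtf3c5 (25.7 kb away) and Tsc1 (19.2 kb away) were both at 41.1 CPM in Control.

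All 12 GFI1 co-repressor genes were tested. SAHA against Control had 8 higher, 2 lower and 2 not called (beside 32.6% and 34.3% of all tested genes), with a median log2 fold change of 0.25 against 0.00 for all genes. Smarcb1-RE against Control had 7 higher, 2 lower and 3 not called (beside 39.2% and 38.6% of all tested genes), with a median of 0.23 against 0.01. Hmg20b, a subunit of the LSD1-CoREST complex, rose in SAHA by 0.96 (adjusted p = 1.38e-07) and in Smarcb1-RE by 0.45 (adjusted p = 8.16e-05, edgeR). Hdac1 rose in SAHA (0.54, adjusted p = 8.92e-08) and fell in Smarcb1-RE (-0.32, adjusted p = 6.08e-06, edgeR), and Hdac2 fell in both (-0.14, adjusted p = 0.00512, and -0.57, adjusted p = 1.76e-08, edgeR). Rcor3 and Phf21a, further subunits of the complex, rose in Smarcb1-RE by 1.10 (adjusted p = 3.2e-09) and 0.75 (adjusted p = 5.44e-08, edgeR). They also rose in SAHA, by 0.26 (adjusted p = 0.0027) and 0.41 (adjusted p = 2.55e-05, edgeR). Kdm1a, which encodes LSD1, was not among the genes the naming rule chose and is given because it is the enzyme of the complex, with 0.24 in SAHA (adjusted p = 9.75e-05) and 0.07 in Smarcb1-RE (adjusted p = 0.084, edgeR).

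Klf4 (ENSMUSG00000003032, chr4:55527143-55532466, minus strand) had the smallest adjusted p of the 6 in SAHA against Control. Its counts were 476, 469 and 484 in Control, 1039, 1123 and 1094 with SAHA and 701, 565 and 634 in Smarcb1-RE. No groups overlapped, and the SAHA libraries were the highest. Levels were between 19.8 and 20.2 CPM in the Control libraries, 47.2 ± 2.32 CPM in SAHA and 27.4 ± 2.45 CPM in Smarcb1-RE (SD, n = 3 each). Klf4 rose 2.36-fold in SAHA against Control (log2 fold change 1.24, SE 0.07, adjusted p = 9.5e-09, edgeR) and by 0.46 in Smarcb1-RE (log2, SE 0.07, adjusted p = 4.37e-05, edgeR). Smarcb1-RE was lower than SAHA (log2 fold change -0.78, SE 0.06, adjusted p = 1.51e-07, edgeR). Chromosome 4 as a whole stood higher in Smarcb1-RE, with a median log2 fold change of 0.36 over 838 tested genes, where genes on the other chromosomes had a median of -0.01. Of those 838 genes, 44.7% lay above Klf4, and minus the chromosome median Klf4 was at 0.09. The part of the chromosome in the Klf4 value of Smarcb1-RE was not tested. In SAHA the chromosome median was -0.04 and Klf4 minus it was 1.28. The flanking Rad23b (135 kb away) gave -0.03 in SAHA (adjusted p = 0.487) and -0.05 in Smarcb1-RE (adjusted p = 0.234, edgeR). The nearest profiles were Slc44a2 (distance 0.233, r 0.990 over 9 libraries) and Car8 (distance 0.234, r 0.989).

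Next to these 10 genes, 36 other factors of myeloid cells and blood progenitors were read, of which 27 were tested. In SAHA against Control 20 of the 27 rose, 1 fell and 6 were not called, with a median log2 fold change of 0.58, beside 32.6% of all tested genes called higher and a median of 0.00. Without Control replicate 1, 18 rose. In Smarcb1-RE against Control 12 rose and 15 fell, beside 39.2% and 38.6% of all tested genes, with a median of -0.31 beside 0.01. Of the 27, Lyl1 passed the filter only through SAHA and Lmo2 only through Smarcb1-RE. The 9 that were not tested included Tal1, Erg and Fli1, each with at most 3 counts in any library. The list was chosen with earlier results of these data known, and many of its genes also act in lymphocytes.

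Irf8, a factor of monocytes and dendritic cells that also acts in lymphocytes, had 63, 78 and 73 counts in Control, 334, 439 and 447 with SAHA and 8, 12 and 11 in Smarcb1-RE. The groups did not overlap, and it moved in opposite directions in SAHA and Smarcb1-RE (log2 fold change 2.56 in SAHA, adjusted p = 1.27e-08, and -2.73 in Smarcb1-RE, adjusted p = 2.45e-07, edgeR). Irf5, an inflammatory macrophage factor, had 30, 24 and 28 counts in Control, 154, 182 and 206 with SAHA and 63, 54 and 57 in Smarcb1-RE, and rose in both (2.77, adjusted p = 2.36e-08, and 1.13, adjusted p = 7.85e-05, edgeR). Irf4, used by activated lymphocytes and alternatively activated macrophages, was at 412 CPM in Control, rose in SAHA (1.04, adjusted p = 7.04e-09) and fell in Smarcb1-RE (-0.50, adjusted p = 1.55e-06, edgeR). All 3 of these interferon regulatory factors rose in SAHA, where 32.6% of all tested genes were called higher. Irf8 and Irf5 were named for the size of their changes and Irf4 for its level, so this is no result about the family. Spi1, whose product partners with IRF4 and IRF8, was not detected, and a relation to their levels was not tested. Lmo2, a progenitor adaptor protein, had 11, 13 and 4 counts in Control and 8, 2 and 9 in SAHA. The Smarcb1-RE libraries had 81, 66 and 58, and Lmo2 gave 2.90 there (log2, adjusted p = 1.52e-05, edgeR), a difference built into its passing the filter. Runx1, the core-binding factor of blood stem cells, rose in SAHA by 0.58 (adjusted p = 0.014) and in Smarcb1-RE by 2.46 (adjusted p = 2.31e-08, edgeR). Its partner Cbfb fell in both (-0.21, adjusted p = 0.000669, and -0.40, adjusted p = 2.21e-06, edgeR). Id1, an inhibitor of helix-loop-helix factors, rose in SAHA (0.97, adjusted p = 0.00252) and fell in Smarcb1-RE (-2.25, adjusted p = 2.03e-05, edgeR).

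**Figure D3:**
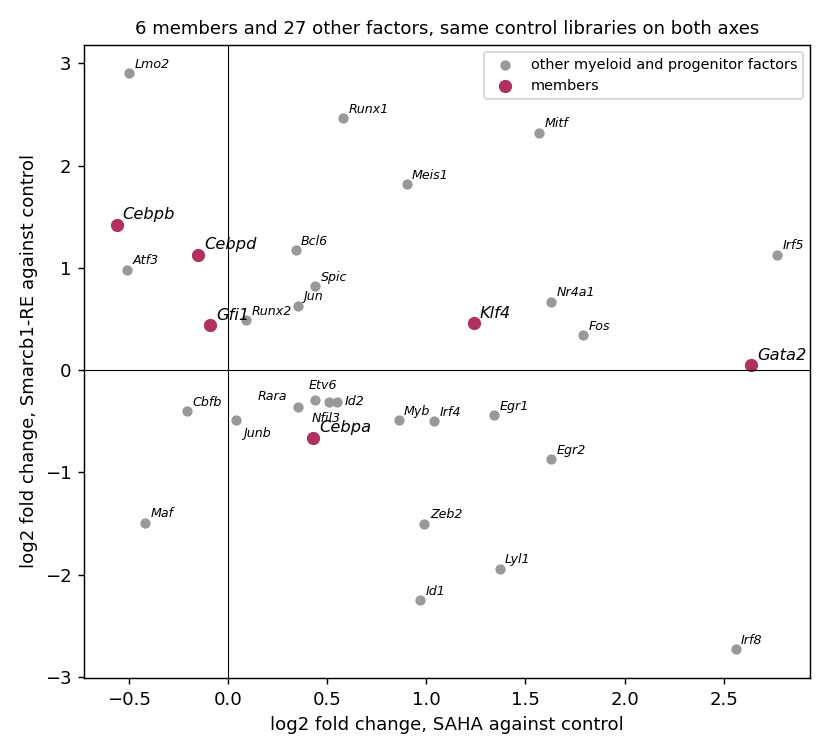
Log2 fold change in SAHA against Control (x axis) and in Smarcb1-RE against Control (y axis) of 6 of the 10 genes (large points) and 27 other myeloid and progenitor factors (small points). Both axes use the same 3 Control libraries, so the axes are not independent. Irf8 lies at 2.56 and -2.73, and Cebpb at -0.56 and 1.42.

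Receptors and effectors known to be regulated by PU.1 and C/EBP were then counted. Of 29 genes, 13 were tested and 11 had at most 3 counts in every library, among them Csf1r, Cd14, Tyrobp and Cybb. SAHA against Control had 6 higher, 4 lower and 3 not called (beside 32.6% and 34.3% of all tested genes), with a median log2 fold change of 0.22 against 0.00 for all genes. Smarcb1-RE against Control also had 6 higher, 4 lower and 3 not called (beside 39.2% and 38.6% of all tested genes), with a median of 0.09 against 0.01. These counts are close to the shares of all genes. Cd68, a lysosomal glycoprotein used as a macrophage marker, had 38, 35 and 48 counts in Control, 132, 163 and 170 with SAHA and 37, 39 and 38 in Smarcb1-RE, and rose in SAHA by 1.99 (log2, adjusted p = 3.83e-07, edgeR). The SAHA libraries were above all others for Cd68. Itgam, another myeloid marker of this list, had 12, 8 and 11 counts in Control. It had 0, 1 and 1 with SAHA and 2, 2 and 3 in Smarcb1-RE, and did not pass the filter on low counts. Fcgr2b, the inhibitory IgG receptor, rose in both (1.52, adjusted p = 1.99e-07, and 1.60, adjusted p = 5e-08, edgeR). Ncf4 and Tlr2, a subunit of the phagocyte oxidase and a lipoprotein sensor, fell in SAHA (-1.36, adjusted p = 5.02e-09, and -0.96, adjusted p = 6.74e-05, edgeR). Csf2rb, the beta chain of the GM-CSF, IL-3 and IL-5 receptors, had 169, 210 and 203 counts in Control, 130, 107 and 100 with SAHA and 1394, 1418 and 1426 in Smarcb1-RE. It fell in SAHA (-0.73, adjusted p = 5.38e-05) and rose in Smarcb1-RE (2.91, adjusted p = 1.38e-11, edgeR), the same signs as Cebpb. Of the other genes of this list called lower in SAHA, Ncf4 and Tlr2 were not called in Smarcb1-RE and Il6ra fell there. A relation between Cebpb and Csf2rb was not tested. Csf2rb has a close paralog, Csf2rb2, with which it may share reads. Tlr4, the endotoxin receptor, had at most 3 counts in each Control and SAHA library and 70, 63 and 76 in Smarcb1-RE, the only group through which it passed the filter. Cyba, a membrane subunit of the oxidase, fell in Smarcb1-RE (-1.28, adjusted p = 3.94e-09), as did Il6ra (-0.33, adjusted p = 0.000123, edgeR). Il6ra also fell in SAHA (-0.57, adjusted p = 1.82e-06, edgeR). Ncf1, a cytosolic subunit of the oxidase, was at 382 CPM in Control and rose in SAHA by 0.22 (adjusted p = 0.000777, edgeR). In Smarcb1-RE it fell (-0.15, adjusted p = 0.00977, edgeR).

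Defining markers of mature myeloid cells were at or near 0. Of 15 neutrophil markers, 12 had at most 3 counts in every library, S100a8, S100a9, Ctsg and Retnlg had 0 in all 9, and 1 was tested. That gene, Cxcr2, a chemokine receptor, was at 2.48 ± 1.01 CPM in Control, 3.69 ± 0.767 CPM in SAHA and 6.44 ± 0.663 CPM in Smarcb1-RE (SD, n = 3 each), with log2 fold changes of 0.57 (adjusted p = 0.0563) and 1.38 (adjusted p = 0.000151, edgeR). Without Control replicate 1 it was also called in SAHA, which gave 1 gene higher in place of 0, beside 4645 of all 14035 genes tested there. The neutrophil list summed to between 1.99 and 4.00 CPM in Control, 3.23 and 4.46 CPM in SAHA and 6.01 and 7.41 CPM in Smarcb1-RE, and most of each sum was Cxcr2. Of 16 macrophage and monocyte markers, 11 had at most 3 counts in every library and 6 had 0 in all 9, among them C1qa, C1qb and C1qc. The 2 tested were Cd68 and Ccr2, a chemokine receptor shared with T cells. Both rose in SAHA (Ccr2 by 0.69, adjusted p = 0.0035, edgeR), where 32.6% of all tested genes were called higher. Neither was called in Smarcb1-RE, beside 39.2% of all tested genes higher and 38.6% lower. The macrophage and monocyte list summed to between 4.34 and 4.86 CPM in Control, 10.6 and 11.6 CPM in SAHA and 4.16 and 4.83 CPM in Smarcb1-RE. Most of each sum was Cd68 (1.69, 6.74 and 1.65 mean CPM) and Ccr2 (2.62, 4.23 and 2.40 mean CPM, in the same order). The list of macrophage markers and that of receptors and effectors share Csf1r, Cd14 and Cd68.

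**Figure D4:**
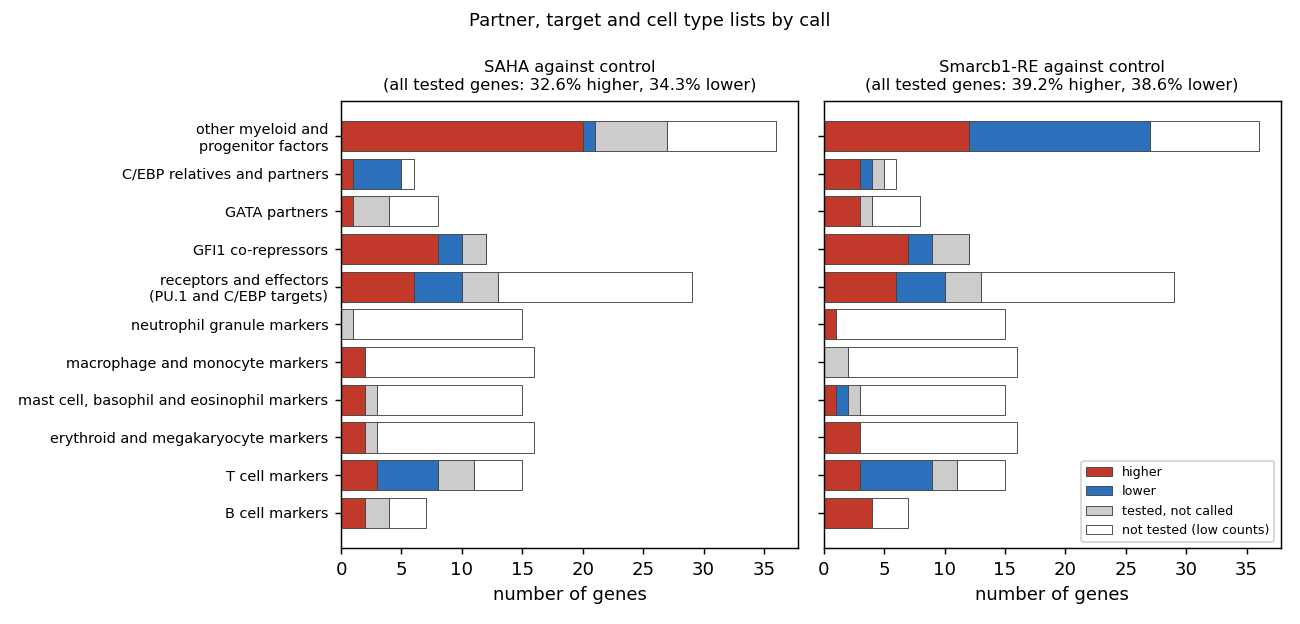
Number of genes (x axis) in each list (y axis) called higher, called lower, tested and not called, or not tested for low counts, in SAHA against Control (left) and Smarcb1-RE against Control (right), 3 libraries per group. Most genes of the 4 myeloid, mast cell and erythroid marker lists were not tested, and 20 of 36 other factors were higher in SAHA.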

How the data were processed

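The authors deposited 1 table of estimated counts per Ensembl gene for 9 libraries, neither normalized nor pooled. The submitters' processing notes name Salmon 0.14.1, DESeq2 1.22.2, FastQC 0.11.8, MultiQC 1.7 and GRCm38, with no roles. Of the values above 0, 52.4% were not whole, and they were rounded. Of 35288 identifiers, 99.3% were found in GENCODE M21 (GRCm38), which gave symbols, positions and exon lengths. Testing used edgeR 4.0.16 in R 4.3.3 (TMM, filterByExpr at 10 counts, glmQLFit, glmQLFTest, 1 fit to 9 libraries, Benjamini-Hochberg adjustment, calls at an adjusted p under 0.05), which left 13697 genes and a biological coefficient of variation of 5.24%. Each standard error is |log2 fold change| over the root of edgeR's F. The code was tested on simulated data. RPKM were computed from exon unions. Counting intervals and the floor of 3 counts cover counting error only. The edgeR p-values set differences between group means against the spread among these libraries.

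Members and lists were chosen with earlier results of these data known. All 10 members are named. From other lists the rule took the called genes with the 2 largest absolute log2 fold changes per direction and the gene highest in CPM, and, for each member, the nearest tested gene on either side and the 2 most similar profiles (average log2 CPM of at least 1). Ddit3 had 2 identifiers, and that with more counts was used. Ahsp was not found. Some genes that the rule chose are not reported here. Alternatives were DESeq2 1.42.0, other scalings, filters, thresholds and samples, a replicate block, and unrounded counts. For Smarcb1-RE against Control they also included values minus the chromosome median.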

Additional observations from a re-analysis of the deposited data

How the results depend on the processing

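Of 344 member values recomputed under the alternatives, 335 stayed on their side of the threshold, 331 of them with the same sign, 8 were no longer called, 1 was newly called and none of the called values reversed. In Smarcb1-RE against Control the alternatives included values minus the chromosome median, which left Klf4 at 0.09 in place of 0.46. That value and the subtracted values of the other tested members are counted among the 335. They carry no test of their own, so their side of the threshold was not checked. Whether the Klf4 value of 0.09 differs from 0 was not tested. The 4 that changed sign were never called, namely Cebpd in SAHA (0.03 without Control replicate 1) and Gata2 in Smarcb1-RE against Control (-0.04, -0.06 and -0.52 without Smarcb1-RE replicates 1 and 2 and Control replicate 1). When calls also needed a log2 fold change of 1 or more in size, the members called lower in SAHA became 0, and those in Smarcb1-RE against Control became 2 called, 2 higher and 0 lower, while all genes gave 1349 higher and 323 lower in SAHA, 2309 and 928 in Smarcb1-RE, and 1582 and 1124 in Smarcb1-RE against SAHA. At an adjusted p under 0.01, 0 members were lower in Smarcb1-RE against Control. Leaving out each library in turn gave 0 to 1 lower there, with 0 without Smarcb1-RE replicate 3. Same-numbered libraries did not deviate together (correlations of -0.128 to 0.0373), and with the replicate block the members called were 3 in SAHA, 5 in Smarcb1-RE and 6 between the treatments, as without it, and Gata2 in SAHA was at 2.67 (adjusted p = 0.00153, edgeR). Gata2 had no value under the filter of 10 counts per library or, in Smarcb1-RE against Control, in the fit to the 2 groups alone. By longest transcript in place of exon union, Gata2 was at 0.204 RPKM in SAHA and Gfi1 at 12.5 RPKM in Control. The list counts without Control replicate 1 were chosen after seeing the data. Depth limits what can be said of Spi1, Gata1, Gfi1b, Cebpe and Gata2.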

Other observations

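Of 7 B cell markers, 4 were tested. SAHA against Control had 2 higher and 2 not called, where 32.6% of all tested genes were higher, and Smarcb1-RE against Control had 4 higher, where 39.2% were. Blnk, 1 of the 4, passed the filter only through Smarcb1-RE. Pax5, the B cell commitment factor, had 0, 6 and 1 counts in Control, 22, 11 and 20 with SAHA and 89, 92 and 88 in Smarcb1-RE. It rose in SAHA by 2.90 (log2, adjusted p = 0.000805, edgeR) and in Smarcb1-RE by 5.24 (adjusted p = 6.18e-07, edgeR), and no groups overlapped. Ebf1, which acts with Pax5, was at 92.7 ± 1.73 CPM in Control, 106 ± 5.47 CPM in SAHA and 152 ± 4.81 CPM in Smarcb1-RE (SD, n = 3 each), and rose in both (0.20, adjusted p = 0.00217, and 0.71, adjusted p = 1.46e-08, edgeR). Ms4a1, which encodes CD20, rose in Smarcb1-RE by 2.08 (adjusted p = 5.86e-07, edgeR).

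Of the 11 tested T cell markers, SAHA against Control had 3 higher, 5 lower and 3 not called (beside 32.6% and 34.3% of all tested genes), and Smarcb1-RE against Control had 3 higher, 6 lower and 2 not called (beside 39.2% and 38.6% of all tested genes). Cd8a was at 690 ± 3.85 CPM in Control and rose in SAHA by 0.55 (adjusted p = 3.08e-08, edgeR), as did Cd3g by 0.40 (adjusted p = 2.28e-05, edgeR). Cd247 and Zap70, of T cell receptor signalling, fell in SAHA (-0.61, adjusted p = 1.26e-07, and -0.40, adjusted p = 4.6e-06, edgeR). Cd247 also fell in Smarcb1-RE (-0.28, adjusted p = 7.31e-05, edgeR), where Cd8a rose (0.20, adjusted p = 0.000141, edgeR). In Smarcb1-RE, Tcf7, the factor of naive T cells, fell by 2.58 (log2, adjusted p = 8.91e-13, edgeR), Cd3g fell by 0.35 (adjusted p = 5.15e-05, edgeR) and the kinase gene Lck rose by 0.69 (adjusted p = 2.64e-09, edgeR).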
